A study of Mus musculus with 6 samples.

Results

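Costimulatory receptors are T cell surface proteins that add to the signal of the T cell receptor, and 10 genes of this system were followed in mouse CD8+ T cells. They are the receptor genes *Cd28*, *Icos*, *Cd2* and *Cd226* of the immunoglobulin superfamily, the receptor genes *Cd27*, *Tnfrsf4*, *Tnfrsf9*, *Tnfrsf18* and *Tnfrsf1b* of the tumour necrosis factor (TNF) receptor superfamily, and *Traf1*, which encodes an adaptor that binds the tails of several TNF receptors. The members were found by gene name among 54446 genes, and all 10 had values.

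RNA-Seq had been performed on 6 libraries of CD8+ T cells from the spleens of wild-type C57BL/6 mice at 8 weeks of age, with 2 libraries in each of 3 groups. Unstimulated cells were fresh cells that had received no antibody, so time in culture and stimulation cannot be told apart in the comparisons with them. Control cells had been stimulated for 72 h with antibodies against CD3 and CD28 bound to the plate, without magnets, and SMF cells had been given the same stimulation on permanent magnets with a static magnetic field of 0.3 T. The cells had been isolated by negative selection, and no source used here says whether the 2 libraries of a group came from separate mice, so the p values measure only the spread between these libraries.

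A T cell that binds antigen without costimulation responds weakly or becomes unresponsive. CD28 binds CD80 and CD86 on antigen-presenting cells and signals through phosphoinositide 3-kinase and protein kinase C theta to the transcription factors NF-kappaB and AP-1, and ICOS binds ICOS ligand. The TNF receptors CD27, OX40 (*Tnfrsf4*), 4-1BB (*Tnfrsf9*), GITR (*Tnfrsf18*) and TNFR2 (*Tnfrsf1b*) recruit TRAF adaptors and feed NF-kappaB survival signals. In CD8+ T cells, CD28 and CD27 are carried by resting cells, whereas 4-1BB and OX40 are known as receptors of activated cells. One of the stimulating antibodies was itself directed at CD28.

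Levels are given as FPKM, fragments scaled to transcript length and to the fragments of the library, summed over the transcripts of a gene. Differences are on the log2(FPKM + 1) scale with their standard errors (SE), and were fitted by limma over the 14991 genes whose mean reached 1 FPKM. All 10 members passed that filter. A gene was called higher or lower at a fold change of at least 2 with an unadjusted p of at most 0.05, the thresholds used in the study, and p values with Benjamini-Hochberg adjustment over all genes tested are given as adjusted p.

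The libraries differed in depth and content. Summed coverage times transcript length ranged from 64.4 to 259 Mb, and the first Unstimulated and the first Control library were the shallowest. Protein-coding genes held 68.7 and 69.2% of all FPKM in SMF cells and 49.1 to 50.5% in the other groups. Genes annotated as antisense held 12.3 to 12.8% in SMF cells and 19.5 to 24.7% in the others. The headers date the libraries to 3 runs. Of these, 0 held both SMF and Control libraries, so the field and the run cannot be told apart. Both SMF libraries were dated to 2018 and both Unstimulated ones to 2017, so stimulation and run cannot be told apart between those groups. The 7 CD8+ T cell markers were above 0 in every library. They summed to 859 and 995 FPKM in Unstimulated, 489 and 826 FPKM in Control and 1121 and 980 FPKM in SMF cells. Of these 7, 2 were called lower in Control than in Unstimulated cells and 0 higher, where 12.6% of all genes were called lower and 12.3% higher. In SMF cells 3 were called higher than in Control cells, *Cd8a* (2.01), *Cd3d* (1.40) and *Trac* (1.10), and 0 lower. Of all genes, 12.5% were called higher there and 5.72% lower, and their median difference was 0.32. *Cd3g* (0.95), *Cd8b1* (0.24), *Cd3e* (0.20) and *Cd247* (-0.37) were not called. The part of these marker differences in the differences of the members was not tested. Summed markers of B cells were 289 to 311 FPKM in Unstimulated cells, 45.4 to 48.2 FPKM in Control cells and 67.8 to 73.4 FPKM in SMF cells. In SMF cells *Ighm* made up 68.5 and 65.1 FPKM of that sum, and *Cd79a*, at 13.5 and 6.96 FPKM in Control cells, stood at 1.85 and 2.43 FPKM. Myeloid markers were 131 and 151 FPKM in Unstimulated and 41.1 to 53.8 FPKM in stimulated libraries, where *Csf1r* alone held 41.1 to 53.8 FPKM, dendritic cell markers 10.5 and 21.7 FPKM and then 0.448 to 3.44 FPKM, and NK cell markers 13.8 and 7.66 FPKM and then 0. Markers of CD4 and regulatory T cells were 14.0 to 27.4 FPKM, with *Cd4* at no more than 4.68 FPKM and *Foxp3* at 4.92 to 20.7 FPKM, and erythroid markers 1.51 to 22.4 FPKM.

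**Figure D1:**
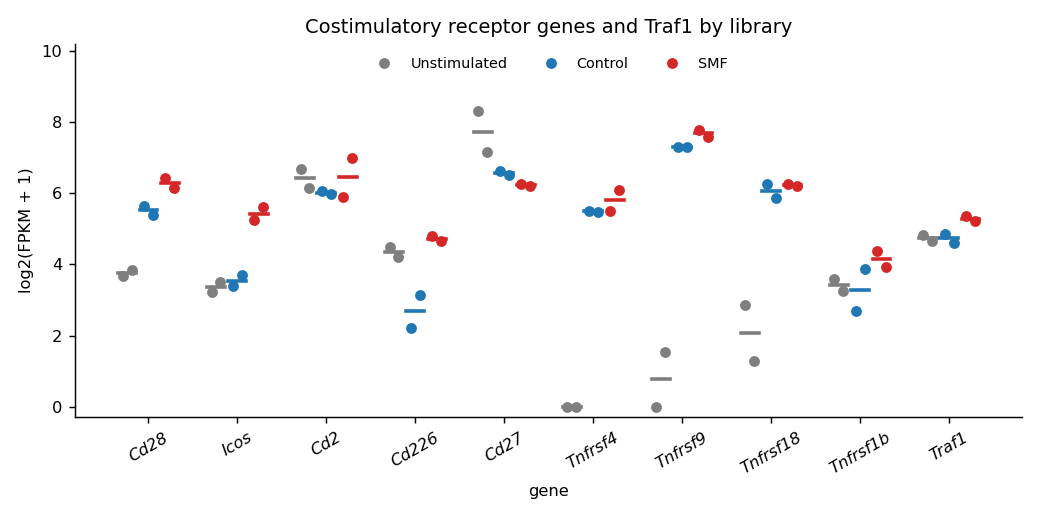
Level of the 10 genes in each of the 6 libraries, as log2(FPKM + 1). Points are libraries, coloured by group, and short lines are means of 2 libraries. *Tnfrsf9*, *Tnfrsf4* and *Tnfrsf18* are near the floor in Unstimulated cells and high in both stimulated groups, *Cd27* goes the other way, and *Icos* and *Cd226* are higher in SMF than in Control cells.

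Between fresh cells and cells stimulated without the field, 4 receptors rose and another 2 fell. *Tnfrsf9*, *Tnfrsf4*, *Tnfrsf18* and *Cd28* were called higher in Control than in Unstimulated cells and *Cd27* and *Cd226* lower, while *Icos*, *Cd2*, *Tnfrsf1b* and *Traf1* were not called. That is 6 of 10 members called, against 24.8% of all genes tested (12.3% higher and 12.6% lower), and 4 of 10 had an adjusted p under 0.05, against 8.48%. The latter count was 0 of 10 when these 4 libraries were fitted alone, where 6 of all genes passed in place of 1271. It also depended on having every SMF and Control library, for the members as for nearly all genes. The groups did not overlap for 7 members, against 51.5% of all genes. Of these, 4 had both Control libraries above both Unstimulated ones, against 24.8% of all genes, and 3 had them below, against 26.6%. The median difference over the members was 0.079, and over all genes it was -0.046. The 2 runs without SMF each held 1 Unstimulated and 1 Control library. None of the 6 called members overlapped between the groups. Their direction within each run was therefore fixed by that, and the runs give no separate check.

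*Tnfrsf9* (chr4:150914562-150946102, plus strand, GRCm38 as in the files) encodes 4-1BB, a receptor of activated T cells that supports the survival of CD8+ T cells. It was listed at 0 and at 1.90 FPKM in Unstimulated cells, at 158 and 156 FPKM in Control cells and at 219.9 and 193 FPKM in SMF cells. Every stimulated library lay far above both Unstimulated libraries. The difference between Control and Unstimulated was 6.53 (SE 0.52, adjusted p = 0.00707), and that between SMF and Unstimulated was 6.92 (SE 0.52, adjusted p = 0.00302). With 1 Unstimulated library at 0, these sizes depend on the added 1 FPKM: with 0.1 FPKM they were 8.45 and 8.85, and without the first or the second Unstimulated library they were 5.76 or 7.30 for Control and 6.15 or 7.69 for SMF.

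*Tnfrsf4* encodes OX40. It was listed at 0 in both Unstimulated libraries, at 44.5 and 43.8 FPKM in Control cells and at 44.2 and 67.8 FPKM in SMF cells. It was above 0 in stimulated libraries alone, and no fold is given because the files hold no counts from which a floor could be set. The adjusted p was 0.00577 for Control and 0.00302 for SMF, each against Unstimulated.

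*Tnfrsf18* encodes GITR, and its gene lies 9.551 kb from *Tnfrsf4* on chromosome 4 with 0 coding genes between them. Its levels were 6.32 and 1.45 FPKM in Unstimulated cells, 76.1 and 57.2 FPKM in Control cells and 76.0 and 72.9 FPKM in SMF cells. Stimulated libraries were again all above Unstimulated ones, by 3.98 (SE 0.55, adjusted p = 0.0156) in Control and 4.16 (SE 0.55, adjusted p = 0.00673) in SMF cells. Without the first or the second Unstimulated library these were 4.77 or 3.19 and 4.95 or 3.37. An annotated antisense gene, *Gm16008*, shares up to 253 bases of exon with it on the other strand and was named after its values had been seen. *Gm16008* stood at 169.7 and 108 FPKM in Unstimulated, 1239 and 1178 FPKM in Control and 440.0 and 600.0 FPKM in SMF cells, above *Tnfrsf18* in every library. How the reads were divided between the strands, here and at other genes, was not tested.

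The promoters of these TNF receptor genes are shown because the genes rose together from near the floor. The sequences are those of RefSeq on GRCm38.p6, from 250 bases before to 50 bases after a start of the gene, read along the gene. Capitals mark matches to the NF-kappaB consensus or to the AP-1 motif TGANTCA, both searched on both strands. RefSeq gives *Tnfrsf9* an upstream and a downstream start.
Tnfrsf9 downstream start, chr4:150927749-150928048, plus strand: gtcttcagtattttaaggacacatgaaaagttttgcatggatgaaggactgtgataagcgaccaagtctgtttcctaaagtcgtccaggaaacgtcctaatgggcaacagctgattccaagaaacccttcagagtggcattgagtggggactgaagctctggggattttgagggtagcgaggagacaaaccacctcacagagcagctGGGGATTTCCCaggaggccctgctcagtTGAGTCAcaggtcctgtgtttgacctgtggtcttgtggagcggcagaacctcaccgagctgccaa
Tnfrsf9 upstream start, chr4:150919905-150920204, plus strand: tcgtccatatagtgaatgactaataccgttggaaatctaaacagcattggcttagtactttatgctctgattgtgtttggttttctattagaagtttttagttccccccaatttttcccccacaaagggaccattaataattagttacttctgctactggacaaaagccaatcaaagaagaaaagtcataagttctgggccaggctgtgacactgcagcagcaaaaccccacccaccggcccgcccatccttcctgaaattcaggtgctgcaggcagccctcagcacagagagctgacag
Tnfrsf4, chr4:156013445-156013744, plus strand: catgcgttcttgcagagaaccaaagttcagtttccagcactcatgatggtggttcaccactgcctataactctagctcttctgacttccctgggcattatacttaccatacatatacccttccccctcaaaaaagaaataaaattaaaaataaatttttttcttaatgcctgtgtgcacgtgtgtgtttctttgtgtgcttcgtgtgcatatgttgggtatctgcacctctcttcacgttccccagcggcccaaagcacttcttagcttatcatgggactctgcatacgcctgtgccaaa
Tnfrsf18, chr4:156026072-156026371, plus strand: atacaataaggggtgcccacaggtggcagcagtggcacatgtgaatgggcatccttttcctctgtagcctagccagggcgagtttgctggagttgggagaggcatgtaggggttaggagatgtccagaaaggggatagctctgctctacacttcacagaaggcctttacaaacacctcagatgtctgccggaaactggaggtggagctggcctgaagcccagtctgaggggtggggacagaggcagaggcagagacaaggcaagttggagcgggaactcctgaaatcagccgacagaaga

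The downstream *Tnfrsf9* window held 2 overlapping NF-kappaB matches, the first starting 43 bases before the start, and 1 AP-1 match starting 15 bases before it. The other 3 windows held neither. Of 32851 RefSeq promoters of the same length, 8.46% held an NF-kappaB match and 7.81% an AP-1 match. The short core of NFAT sites, GGAAA, occurred 3 times in the downstream *Tnfrsf9* window, 2 times in the upstream one, 1 time at *Tnfrsf4* and 2 times at *Tnfrsf18*, and 61.3% of all promoters held it. Promoters were matched for 6 of the 10 genes, and those of *Cd27*, *Tnfrsf1b* and *Traf1* also held no NF-kappaB and no AP-1 match.

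Transcripts of *Tnfrsf9* from the upstream starts held 66.0% of its FPKM in the second Control library and 17.2% in the first SMF library. They were listed at 0 in the first Control and the second SMF library. The replicates of a group thus differed as much as the groups, and the choice of start could not be compared between groups at this depth.

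*Cd27* encodes a TNF receptor of naive and memory T cells that binds CD70, and it was the most abundant of the 9 receptors in both Unstimulated libraries. Its levels were 315 and 143 FPKM in Unstimulated, 97.3 and 91.3 FPKM in Control and 75.5 and 72.8 FPKM in SMF cells. The 3 groups did not overlap, and the first Unstimulated library was far above the second. The difference from Unstimulated was -1.16 (SE 0.39, limma adjusted p = 0.122) in Control and -1.51 (SE 0.39, adjusted p = 0.0393) in SMF cells. Without the first Unstimulated library, neither difference was called (-0.60 and -0.94). The B cell and myeloid markers fell in the same libraries. In bulk RNA, fewer cells of a type and less RNA per cell cannot be told apart, and the part of such cells in the fall of *Cd27* was not tested.

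*Tnfrsf1b* encodes TNFR2, a receptor of TNF. Its levels were 11.0 and 8.59 FPKM in Unstimulated, 5.51 and 13.5 FPKM in Control and 19.9 and 14.3 FPKM in SMF cells. The Control libraries spanned the Unstimulated ones, and both SMF libraries were above all others. It was not called in any comparison, and its difference between SMF and Control had a 95% interval of -0.36 to 2.11.

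Among the immunoglobulin superfamily receptors, *Cd28* was the one called higher in both stimulated groups with an adjusted p under 0.05 in each. Its levels were 11.7 and 13.4 FPKM in Unstimulated, 49.0 and 41.1 FPKM in Control and 85.0 and 69.4 FPKM in SMF cells. The groups stood apart in that order. Control exceeded Unstimulated by 1.76 (SE 0.30, adjusted p = 0.0246), a 3.40-fold change on that scale, and SMF exceeded it by 2.53 (SE 0.30, adjusted p = 0.00562), a 5.76-fold change.

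*Icos* (chr1:60977927-61000320, plus strand) encodes a CD28 relative that is known to be induced on activated T cells. It stood at 8.40 and 10.3 FPKM in Unstimulated and at 9.58 and 11.9 FPKM in Control cells, with overlapping ranges, and at 36.8 and 48.3 FPKM in SMF cells. The difference between Control and Unstimulated was 0.18 (95% interval -0.69 to 1.05), whereas SMF exceeded Unstimulated by 2.06 (SE 0.36, adjusted p = 0.0136). *Cd28* and *Icos* lie 205 kb apart on chromosome 1, and *Ctla4*, for an inhibitory receptor of the same ligands as CD28, is the 1 coding gene between them. *Ctla4* was listed at 0 and 1.99 FPKM in Unstimulated, at 109 and 48.4 FPKM in Control and at 64.8 and 105 FPKM in SMF cells, so of these 3 neighbours *Cd28* and *Ctla4* were called higher in Control cells and *Icos* was not.

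*Cd226* (chr18:89197431-89270201, plus strand) encodes DNAM-1, an activating receptor that binds CD155 and CD112. Its levels were 21.3 and 17.4 FPKM in Unstimulated, 3.64 and 7.87 FPKM in Control and 26.7 and 24.4 FPKM in SMF cells. Control cells were thus the lowest group, while SMF cells lay just above Unstimulated ones. It was called lower in Control than in Unstimulated cells, by -1.66 (SE 0.44, limma adjusted p = 0.0703), and SMF did not differ from Unstimulated by a called amount (0.39, 95% interval -0.67 to 1.45). *Tigit*, for an inhibitory receptor that binds the same CD155, was listed at 0 in both Unstimulated libraries, at 9.24 and 25.1 FPKM in Control and at 38.6 and 31.2 FPKM in SMF cells.

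*Cd2* encodes an adhesion receptor that binds CD48 in the mouse. Its levels were 103 and 69.8 FPKM in Unstimulated, 65.5 and 62.5 FPKM in Control and 59.1 and 126 FPKM in SMF cells. The SMF libraries lay on either side of all the others, and no comparison called the gene. *Traf1* stood at 27.7 and 24.3 FPKM in Unstimulated, 27.8 and 23.4 FPKM in Control and 39.8 and 36.4 FPKM in SMF cells. Both SMF libraries were above the rest, by 0.53 against Unstimulated (SE 0.30, adjusted p = 0.239) and 0.56 against Control (SE 0.30, adjusted p = 0.336) in limma, which were not called.

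SMF cells against Unstimulated cells gave 6 of 10 members called, 5 higher and 1 lower, where 37.2% of all genes were called (22.4% higher and 14.8% lower). All 6 had an adjusted p under 0.05, against 23.6% of all genes. That count depended on having both SMF libraries, for the members as for all genes tested. The groups did not overlap for 9 members, against 65.8%, with 8 above (39.7%) and 1 below (26.0%). The members' median difference was 1.40, and that of all genes was 0.27. The 2 stimulated groups share the Unstimulated libraries, so their differences from them are not independent. SMF and Unstimulated libraries shared no run, so stimulation, field and run cannot be told apart in this comparison.

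**Figure D2:**
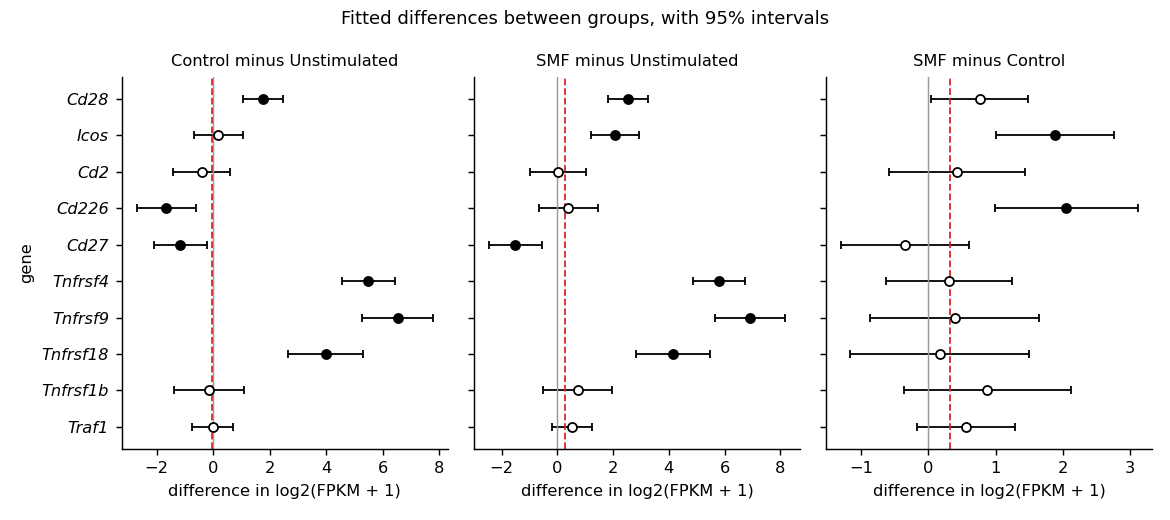
Fitted differences of the 10 genes in log2(FPKM + 1) for 3 comparisons, with 95% intervals from limma. Filled points are called genes, open points are not called, the grey line is 0 and the dashed red line is the median of all genes tested. SMF against Control shows 2 filled points, *Icos* at 1.88 and *Cd226* at 2.05. The *Tnfrsf4* and *Tnfrsf9* points in the first 2 panels depend on the added 1 FPKM, since these genes were listed at 0 in both and in 1 of the Unstimulated libraries.

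The comparison of SMF with Control cells asks what differed with the field and the run together. *Icos* and *Cd226* were called higher in SMF cells, and the other 8 members were not called. That is 2 of 10 members, both higher, where 18.2% of all genes were called, 12.5% higher and 5.72% lower. By limma, 0 members had an adjusted p under 0.05, and 4 of all genes (0.0267%) had one. The groups did not overlap for 7 members, against 54.8% of all genes, with 6 above (37.4%) and 1 below (17.4%). The median difference over the members was 0.49 and over all genes 0.32, so a member at the general shift is not at 0.

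*Icos* was higher in SMF than in Control cells by 1.88 (SE 0.36, limma adjusted p = 0.136), a 3.69-fold change. *Cd226* was higher by 2.05 (SE 0.44, limma adjusted p = 0.140), a 4.13-fold change. With each library scaled to 1 median the differences were 1.54 and 1.71, and both were called. All genes then split into 877 called higher and 1441 called lower, where the unscaled values gave 1868 and 857. For *Icos* the lower SMF library was 36.8 FPKM and the higher Control library 11.9 FPKM, and for *Cd226* these were 24.4 and 7.87 FPKM.

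*Cd28* was higher in SMF cells by 0.76 (SE 0.30, limma adjusted p = 0.226), a 1.70-fold change that stayed under the fold threshold, and it was 0.42 with each library scaled to 1 median. The 3 receptors that rose most with stimulation differed little between SMF and Control cells. The difference was 0.39 for *Tnfrsf9* (95% interval -0.86 to 1.64), 0.30 for *Tnfrsf4* (-0.63 to 1.24) and 0.17 for *Tnfrsf18* (-1.16 to 1.50). These intervals leave room for changes of more than 2-fold in either direction for *Tnfrsf18* and upward for the other 2. The signs of *Tnfrsf4* and *Tnfrsf18* turned with scaling to 1 median, to -0.037 and -0.17. *Cd27* differed by -0.34 (-1.29 to 0.61).

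Coverage was incomplete over *Icos* and *Cd226* in some libraries. In the longest coding transcript of *Icos*, which has 5 exons, 1 and 3 exons had coverage in Unstimulated, 2 and 3 in Control and 5 and 5 in SMF cells. Of the 7 exons of *Cd226*, 4 and 6, 2 and 6, and 7 and 7 had coverage in the same order. The SMF libraries, which were the deepest, covered both genes in full, and the other 4 lacked reads on part of each. The first Unstimulated and first Control library also lacked reads on part of *Cd28* (2 and 2 of 4 exons covered), *Cd2* (3 and 3 of 5) and *Traf1* (4 and 5 of 7). The second libraries of these groups and both SMF libraries covered these genes in full. *Cd27* had coverage on all 6 exons in every library. *Tnfrsf1b* differed, with coverage on 10 of 10 exons in the second Control library and on 6 and 8 in the SMF libraries. The part of depth in the 2 calls was not tested. *Tnfrsf9*, *Tnfrsf4* and *Tnfrsf18* had coverage on all exons of their longest coding transcript in all 4 stimulated libraries.

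The make-up of the receptor RNA differed between groups, with *Cd27* as the largest part in Unstimulated cells and several receptors side by side in stimulated ones. Of the FPKM summed over the 9 receptors, *Cd27* held 66.1 and 53.8% in Unstimulated, 19.1 and 18.8% in Control and 11.7 and 10.6% in SMF cells. *Tnfrsf9* held 0 and 0.716% in Unstimulated, 31.0 and 32.1% in Control and 34.2 and 28.0% in SMF cells, and was the largest single part in every stimulated library. *Icos* held 1.88 and 2.46% in Control cells and 5.72 and 7.02% in SMF cells. *Cd226* held 0.716 and 1.62% and then 4.16 and 3.54%. On this scale, which does not depend on the library's total, neither receptor overlapped between Control and SMF. *Cd28* (9.63 and 8.47%, then 13.2 and 10.1%) and *Cd27* did not overlap either. In FPKM, 54.8% of all genes did not overlap in this comparison, and the shares restate the same FPKM values. The summed FPKM itself was 476 and 266 in Unstimulated, 509 and 485 in Control and 643 and 688 in SMF cells.

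**Figure D3:**
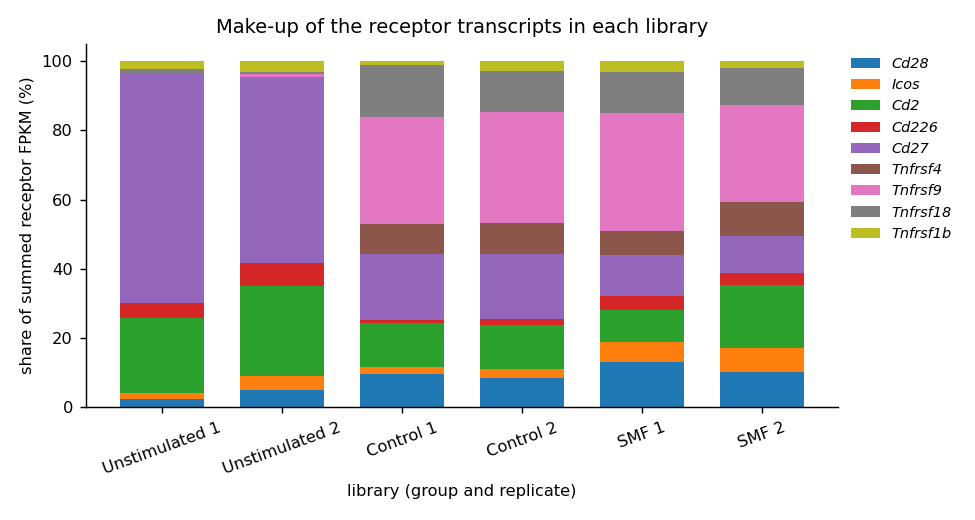
Share of each of the 9 receptor genes in their summed FPKM (percent), 1 bar per library. *Cd27* takes more than any other receptor in the Unstimulated bars, at 66.1 and 53.8%, and *Tnfrsf9* in the Control and SMF bars, at 28.0 to 34.2%.

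Transcripts without a coding sequence held a large part of some members. For *Cd27*, coding transcripts held 25.7 and 39.9% of the FPKM in Unstimulated, 38.6 and 30.3% in Control and 58.1 and 66.1% in SMF cells, and the rest were 3 annotated retained-intron transcripts. Coding transcripts alone gave *Cd27* 81.0 and 57.1 FPKM in Unstimulated, 37.5 and 27.7 FPKM in Control and 43.8 and 48.1 FPKM in SMF cells. On that measure, added after the data had been seen, Control in place of SMF was the lowest group. SMF against Unstimulated was -0.56 and no longer called, and SMF against Control turned from -0.34 to 0.50.

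*Cd2* was split differently even between replicates, with 6.67 and 73.9% of its FPKM on the coding transcript in the Unstimulated libraries. A retained-intron transcript held 85.6% in the first of them. For *Traf1*, coding transcripts gave 7.82 and 12.3 FPKM in Unstimulated, 13.2 and 19.02 FPKM in Control and 25.7 and 18.9 FPKM in SMF cells, and SMF against Unstimulated was then called higher, by 1.09. *Icos*, *Cd226*, *Tnfrsf9* and *Tnfrsf1b* were on coding transcripts throughout wherever they were above 0.

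**Figure D4:**
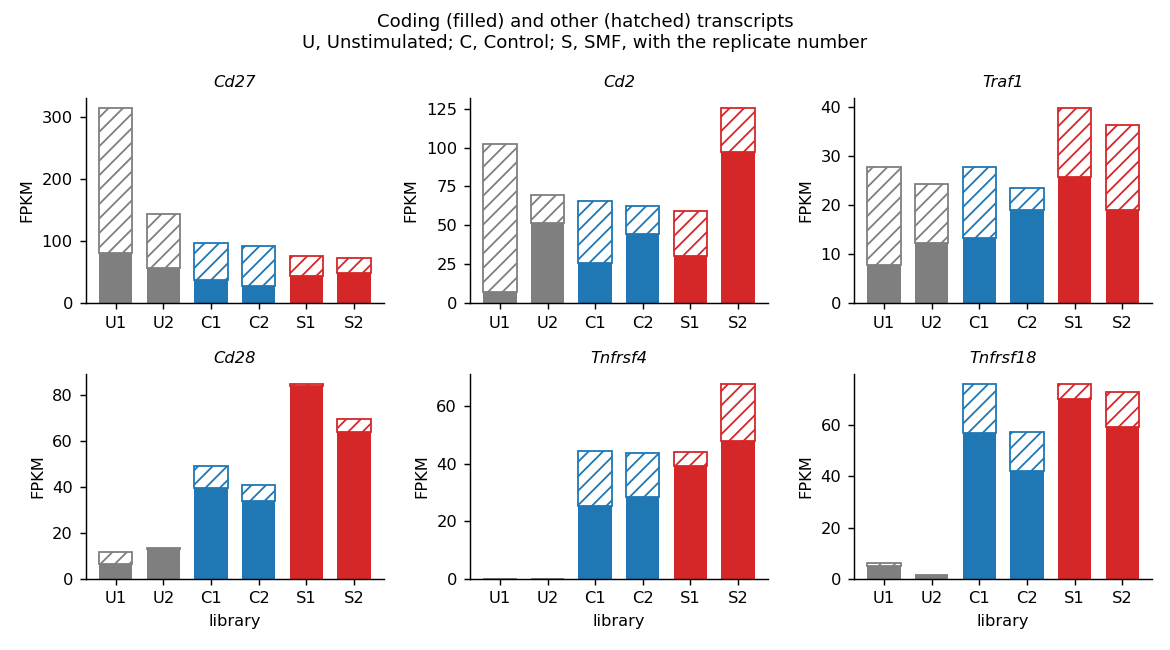
FPKM of coding transcripts (filled) and of other transcripts (hatched) of 6 members in each library; the whole bar is the level of the gene. *Cd27* has 58.1 and 66.1% of its FPKM on coding transcripts in the SMF libraries and at most 39.9% in the other 4, and the coding part of *Cd2* is small in the first Unstimulated library.

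Within *Icos*, the longer of 2 coding transcripts held nearly all of the difference. It stood at 5.75 and 7.93 FPKM in Unstimulated, 5.69 and 10.7 FPKM in Control and 36.6 and 46.5 FPKM in SMF cells, and the shorter transcript stayed between 0.129 and 3.90 FPKM. For *Cd226* 1 transcript held all FPKM in 5 libraries and 70.9% in the second SMF library.

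The ligands of these receptors are mostly made by antigen-presenting cells. Of 12 listed ligands 11 were in the files and 9 were tested. Control cells against Unstimulated cells gave 1 called higher and 2 lower (33.3%), where 24.8% of all genes were called. *Cd86* stood at 3.18 and 6.15 FPKM and *Icosl*, for ICOS ligand, at 3.26 and 4.17 FPKM in Unstimulated cells, and both were listed at 0 in all 4 stimulated libraries. *Tnfsf9*, the ligand of 4-1BB, rose from 2.20 and 1.22 FPKM to 6.81 and 6.45 FPKM in Control cells (1.52, SE 0.51, adjusted p = 0.121 by limma). The fall of *Cd86* and *Icosl* went with that of the B cell markers, and of the myeloid marker *Lyz2*, which was 42.5 and 74.0 FPKM in Unstimulated cells and listed at 0 in the other 4. The part of such cells in it was not tested.

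SMF cells gave 3 of the 9 ligands called higher than Control cells and 0 lower, where 12.5 and 5.72% of all genes were. These counts were the same with each library scaled to 1 median. With each library scaled to 1 FPKM sum over coding genes with several exons, they were 2 and 0. The list median was 0.16, and with these 2 scalings it was -0.18 and 0. *Tnfsf4*, the OX40 ligand, stood at 2.60 and 1.66 FPKM in Control and at 11.6 and 19.5 FPKM in SMF cells, a difference of 2.38 (SE 0.66, adjusted p = 0.167 by limma). *Tnf*, the TNFR2 ligand, stood at 7.01 and 2.90 FPKM and at 21.5 and 23.9 FPKM, a difference of 2.08 (SE 0.74, adjusted p = 0.201 by limma). *Cd80*, a ligand of CD28, stood at 7.67 and 6.74 FPKM and at 16.1 and 32.5 FPKM, and was also called. None of these groups overlapped.

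Other costimulatory receptors and their partners formed a list of 18 genes, of which 15 were tested. Control against Unstimulated gave 5 higher and 2 lower (46.7%, against 24.8% of all genes). SMF against Control gave 2 higher and 0 lower (13.3%, against 18.2% of all genes). These counts were the same with each library scaled to 1 median. With each library scaled to 1 FPKM sum over coding genes with several exons, they were 4 and 4, and 2 and 0. *Ctla4* (5.42, adjusted p = 0.0133 by limma) and *Cd6* (2.03, adjusted p = 0.0445), a receptor that tunes T cell receptor signals, were higher in Control cells, as was *Tigit*. *Cd40lg*, for the CD40 ligand, was 6.21 and 2.34 FPKM in Unstimulated cells and listed at 0 in the stimulated ones. *Cd5*, for a receptor that restrains T cell receptor signals, was 31.5 and 39.8 FPKM in Control and 159 and 115 FPKM in SMF cells, and *Slamf1* was 2.19 and 8.78 FPKM and 26.0 and 20.6 FPKM.

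**Figure D5:**
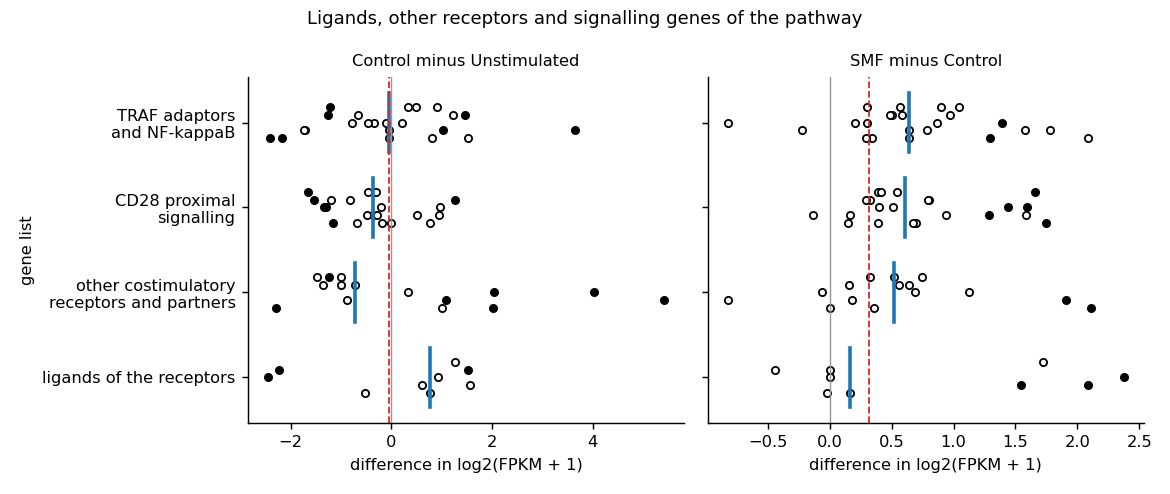
Differences in log2(FPKM + 1) of the tested genes of 4 lists around the receptors, for Control against Unstimulated and SMF against Control. Each point is a gene, filled where called; blue bars are list medians, the grey line is 0 and the dashed red line is the median of all genes. In the SMF panel 12 of 69 genes are filled (17.4%), all above 0, where 18.2% of all genes were called; with each library scaled to 1 median, 9 were called higher and 1 lower.

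Genes that carry the signal of CD28 were followed in a list of 23, of which 22 were tested. Control against Unstimulated gave 1 higher and 5 lower (27.3%, against 24.8% of all genes), with a list median of -0.36. With each library scaled to 1 median the counts were 3 and 4, and the list median was -0.27. With each library scaled to 1 FPKM sum over coding genes with several exons, they were 1 and 6, and -0.50. *Prkcq*, for protein kinase C theta, stood at 37.2 and 39.2 FPKM in Unstimulated, 8.89 and 14.8 FPKM in Control and 32.0 and 46.4 FPKM in SMF cells. *Fyn*, for a Src family kinase, stood at 74.6 and 48.7, 21.3 and 25.6, and 83.7 and 62.5 FPKM in the same order. *Pik3r5* was also among the genes called lower in Control cells. Both *Prkcq* and *Fyn* thus had Control as the lowest group, as *Cd226* did, but unlike *Cd226* their SMF and Unstimulated libraries overlapped.

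SMF against Control gave 5 of these 22 genes higher and 0 lower, where 12.5% of all genes were called higher and 18.2% in either direction. The list median was 0.61 against 0.32 for all genes, and with each library scaled to 1 median it was 0.27, with 4 genes called higher and 0 lower. *Lcp2*, for the adaptor SLP-76, was 28.8 and 38.2 FPKM in Control and 88.3 and 94.96 FPKM in SMF cells (1.44, SE 0.30, adjusted p = 0.137 by limma). SMF against Unstimulated gave 6 higher and 0 lower (27.3%, against 37.2% of all genes). With each library scaled to 1 median these counts were 5 and 2. Among the 6 without that scaling were *Lcp2*, *Malt1*, *Cd2bp2* and *Akt2*.

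TRAF adaptors and NF-kappaB genes were the last list, with 23 of 24 tested. Control against Unstimulated gave 3 higher and 4 lower (30.4%, against 24.8% of all genes). With each library scaled to 1 median these counts were 3 and 3. With each library scaled to 1 FPKM sum over coding genes with several exons, they were 2 and 5. *Nfkb1* rose from 29.8 and 31.9 FPKM to 85.0 and 89.3 FPKM (1.47, SE 0.25, adjusted p = 0.0252 by limma), and *Bcl2a1d*, a survival gene known as an NF-kappaB target, from 1.86 FPKM and a listing at 0 to 20.3 and 19.7 FPKM. *Bcl2a1d* belongs to a family of near-identical copies, so its reads may be divided among them. *Ikbkb*, for a kinase that activates NF-kappaB, fell from 49.5 and 38.0 FPKM to 7.14 and 11.1 FPKM (-2.16, SE 0.38, adjusted p = 0.0266 by limma), and *Nfkbia*, for an inhibitor of NF-kappaB, from 37.8 and 34.9 FPKM to 1.64 and 17.5 FPKM. SMF against Control gave 2 higher, *Tradd* (1.39) and *Ikbkb* (1.29), and 0 lower (8.70%, against 18.2% of all genes). With each library scaled to 1 median, however, 0 were called higher and 1 lower. SMF against Unstimulated gave 6 higher and 1 lower (30.4%, against 37.2% of all genes). *Nfkb2*, among those higher, was at 12.3 and 8.90 FPKM in Unstimulated and 42.8 and 44.0 FPKM in SMF cells.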

How the data were processed

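The authors deposited 1 StringTie 1.3.5 file per library, made on GRCm38 (mm10) with the GENCODE M19 annotation and restricted to annotated transcripts, with the first read of a pair taken as sense. Whether that strand setting matches the stranded kit was not tested; genes annotated as antisense held 12.3 to 24.7% of FPKM, and a mismatch would bear on every gene value. Reads had been trimmed with Trimmomatic 0.36 and aligned with HISAT2, per the submitters' processing notes. The authors' FPKM per transcript is normalized for transcript length and fragments, and FPKM was summed here per gene. Gene and transcript types, such as coding, antisense and retained intron, were taken from a later GENCODE release than M19. In that release 37 genes had no match. A deposited gene table has 3 columns that match no sample and was not used. Without counts in the files, values carry no counting interval, and 0 means a gene listed at 0.

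Of 54446 genes, the 14991 whose mean reached 1 FPKM were fitted as log2(FPKM + 1) with limma 3.58.1 (R 4.3.3) on the 3 groups together with a variance trend, leaving 3 residual degrees of freedom, and tested on simulated data. Tables were made with Python 3.11.15 and pandas 2.3.3. Alternatives were another pseudocount, other filters, scalings, TPM, variance models, a replicate block, the run as a term, the 4 libraries compared alone and each library left out; coding transcripts only, and scaled counts of the other 4 lists, were added after the data had been seen. The members and lists were chosen with earlier results of these data known. All members were named; of the other 4 lists, up to 4 called genes with the largest differences were named per comparison, and named members' transcripts held at least 10% of a gene in some library. Other genes are named where values beside a result needed them. Listed genes without a value, such as *Cd70*, *Tnfrsf8* and *Bcl2l1*, were not analysed here. Some genes of the lists that the rule would name are not reported here.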

Additional observations from a re-analysis of the deposited data

How the results depend on the processing

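Over the alternatives, the number of members called was 4 to 6 for Control against Unstimulated (6 as reported, 4 without the first Unstimulated library), 5 to 6 for SMF against Unstimulated (6 as reported) and 2 to 3 for SMF against Control (2 as reported, 3 without the second Control library, where *Tnfrsf1b* was called at 1.46). *Icos* and *Cd226* were called in all 16 alternatives of SMF against Control, at 1.53 to 2.08 and 1.58 to 2.51. The call of *Cd27* against Unstimulated was kept in 10 of 17 alternatives for Control and 12 of 16 for SMF, and that of *Cd226* in Control in 16 of 17. Differences near 0 changed sign. For Control against Unstimulated, *Traf1* was 0.066 with 1 median per library, -0.14 to 0.097 with 1 library left out and 0.64 on coding transcripts; *Tnfrsf1b* was -0.72 to 0.44 with 1 library left out; and *Cd2* was 0.78 on coding transcripts. For SMF against Unstimulated, *Cd2* was -0.23 with 1 median, -0.48 with 1 sum over coding genes and -0.51 to 0.56 with 1 library left out, and *Cd226* was -0.099 with 1 sum. For SMF against Control, *Tnfrsf4* was -0.037 with 1 median, -0.057 with 1 sum and -2.13e-05 to 0.61 with 1 library left out, *Tnfrsf18* was -0.17, -0.19 and -0.031 to 0.37 in the same order, *Cd2* was -0.11 to 0.96 with 1 library left out, and *Cd27* was 0.50 on coding transcripts. The cause was not tested. The replicate numbers gave correlations of 0.10, 0.03 and 0.02 between groups, so they were not taken as pairs; with a replicate block 6, 6 and 2 members were called. Replicate numbers 1 and 2 of Unstimulated and Control did share a run each, and with the run as a term 6 members were called there. The members' adjusted p values under 0.05 depended on having both SMF libraries, as did those of nearly all genes. For Control against Unstimulated they also depended on both Control libraries. In these fits the library left alone was assumed to vary like the other groups. The 4 libraries of Control and Unstimulated fitted alone gave 0 members, and 6 of all genes in place of 1271. The files give no counts, so depth limits the low values by an unknown amount.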
